A study of Mus musculus with 69 samples.

Results

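The subject is a set of 7 genes that lay higher in Camk2a neurons of Fmr1 KO mice than in those of WT mice, namely Fam160a1, Atl3, Zfp518a, Smg6, Nwd2, Zkscan8 and Polr2a. They were chosen on the values of the KO and WT Camk2a libraries, out of 17634 genes in the deposited table, and all 7 were found in it and passed the filter on low counts in every comparison. Because that choice used the KO against WT contrast in Camk2a neurons, this contrast is given as a description, with no test. Tests are given for KO against WT in parvalbumin (PV) interneurons and for the visual against the somatosensory area. The PV libraries took no part in the choice. The area comparison in Camk2a neurons is a different contrast from the 1 that chose the genes but uses the same libraries, so only its PV counterpart is independent of the choice.

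The libraries are RiboTag RNA-seq of mouse cortex. A Cre driver, either Camk2a-Cre (mainly excitatory pyramidal cells in cortex) or PV-Cre (fast-spiking inhibitory cells), switches on an HA-tagged copy of the ribosomal protein RPL22, and the tag is used to pull down the mRNA on ribosomes of those cells. All mice were 70 to 100 days old and carried Rpl22HA/HA and a Cre allele, KO and WT mice alike, and differed in whether Fmr1 was knocked out. The Camk2a-Cre-Rpl22HA/HA groups held 6 KO and 8 WT libraries from primary visual cortex (V1) and 7 KO and 8 WT libraries from primary somatosensory cortex (S1). The PV-Cre-Rpl22HA/HA groups held 10 KO and 10 WT libraries from each area. Most animals gave a library of each area, which were summed for the comparison of animals, with 6 KO and 7 WT Camk2a animals and 9 KO and 10 WT PV animals. Values are CPM (the authors' estimated counts of a gene, scaled to the same total in every library), and fold changes come from edgeR fits over all genes with sex as a covariate.

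Fmr1 encodes FMRP, an RNA-binding protein that associates with polyribosomes and represses translation of many neuronal mRNAs, and its silencing causes fragile X syndrome in humans. The 7 genes do not form 1 pathway. Polr2a encodes the largest subunit of RNA polymerase II, which transcribes the mRNAs of nuclear genes. Smg6 encodes the endonuclease of nonsense-mediated decay, the pathway that destroys mRNAs with a premature stop codon. Zfp518a and Zkscan8 encode zinc finger proteins, the Zkscan8 protein being of the SCAN and KRAB class found in many repressors of transcription. Atl3 encodes atlastin 3, a GTPase that fuses and shapes tubules of the endoplasmic reticulum. Fam160a1 encodes a FHIP protein, a family that joins Hook adaptors in linking vesicles to dynein, and Nwd2 encodes a protein with NACHT and WD repeat domains whose role is little known.

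The labels held up on the targeted gene. Fmr1 lay between 6.38 and 16.1 CPM in the KO libraries and between 38.6 and 91.3 CPM in the WT libraries, with no overlap. Library totals were 27.64 to 49.11 M estimated counts. The excitatory marker Slc17a7 ranged over 2142 to 2701 CPM in Camk2a libraries, against 120 to 351 CPM in PV libraries, and Pvalb over 1.80 to 112 CPM, against 161 to 745 CPM. The microglial C1qa stayed at 0.181 to 1.17 CPM in Camk2a libraries, against 1.13 to 3.76 CPM in PV libraries. The astrocyte marker Aldoc ranged over 29.6 to 98.6 CPM in Camk2a libraries, against 154.5 to 261 CPM in PV libraries. The oligodendrocyte marker Mbp ranged over 115 to 280 CPM, against 135 to 368 CPM. These single markers did not stand for their whole lists. Summed over 14 astrocyte markers, group medians were 1003 to 1150 CPM in Camk2a and 776 to 926 CPM in PV libraries. Summed over 12 oligodendrocyte markers, they were 246 to 356 CPM in Camk2a and 561 to 752 CPM in PV libraries. RNA of glial markers was thus present in both classes. Some libraries stood apart. The 6 Camk2a libraries of animals C3 (KO), C18 and C19 (both WT) held 268 to 830 CPM of Pvalb, Gad1, Gad2 and Slc32a1 together, against 25.1 to 80.7 CPM in the other 23 Camk2a libraries. Of the 12 PV markers, 11 were lower in KO than in WT Camk2a animals, with a median log2 fold change of -0.89, 0 called by edgeR's adjusted test and 1 at an unadjusted p under 0.05. Markers of other cells called lower, beside 2.05% of all genes, were 2 of 14 for astrocytes (Aldoc and Aldh1l1), 1 of 12 for oligodendrocytes (Mbp), 1 of 8 for their precursors (Bcas1) and 1 of 14 for vessels (Tagln). Lower values, called or not, were seen for 10 of 12 oligodendrocyte and 7 of 8 other interneuron markers. The other lists were mixed, with 8 of 14 astrocyte, 5 of 8 precursor, 6 of 14 vessel and 5 of 12 microglia markers lower. Summed astrocyte markers had medians of 1032 CPM in KO and 1003 CPM in WT in Camk2a V1, and of 1150 and 1081 CPM in S1. The part of these cells in the Camk2a values below was not tested. A score of 50 genes per area, which left out the 7 genes, was built in each class. Its genes were picked for their difference between the labelled areas in these same libraries. On it, 7 libraries scored nearer to the area they were not labelled with. These were both libraries of C24 (Camk2a WT), P22 (PV WT) and P9 (PV KO) and the V1 library of P24 (PV KO). The S1 library of C24 is also the only 1 of batch 2, all others being labelled batch 1. In 3 animals the Y-linked RNA went against the labelled sex, which is the covariate of the main fits. These were C16 (labelled male) and C23 (labelled female), both Camk2a WT, and P11 (PV KO, labelled female). Fold changes between the genotypes are given for each gene with and without C3, C18 and C19 in Camk2a animals and with and without P9, P22 and P24 in PV animals.

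The promoter stretches below, from RefSeq (GRCm38.p6), run from 250 bases before to 50 after the annotated start. They are shown because Fam160a1 and Nwd2 held no GC box and fewer CpG dinucleotides than the other 5. Both were called higher in V1 in libraries taken as independent. Whether promoter letters and area levels go together was not tested. All 7 genes had an entry. The start used for Fam160a1 lies 71082 bases inside the gene, whose outermost transcript is annotated as a target of nonsense-mediated decay, and 57 bases from the start of a coding transcript in GENCODE M21. The starts of the other 6 lie 0 to 398 bases from the outer end of the gene. Which start the Fam160a1 reads come from was not tested. The first pair comes from Polr2a (chr11:69758584-69758883, minus strand) and Smg6 (chr11:74925604-74925903, plus strand). The second pair comes from Fam160a1 (chr3:85746160-85746459, minus strand) and Nwd2 (chr5:63648853-63649152, plus strand). Capitals mark, on either strand, the GC box (GGGCGG), the CCAAT box, the core of the cAMP response element (TGACG) and the TATA box (TATAAA).
Polr2a: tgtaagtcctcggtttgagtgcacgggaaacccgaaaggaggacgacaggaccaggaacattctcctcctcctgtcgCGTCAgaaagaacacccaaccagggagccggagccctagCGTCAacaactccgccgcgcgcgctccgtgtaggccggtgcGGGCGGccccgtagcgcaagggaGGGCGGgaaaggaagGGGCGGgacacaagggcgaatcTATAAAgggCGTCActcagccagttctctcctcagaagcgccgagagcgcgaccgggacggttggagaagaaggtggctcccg
Smg6: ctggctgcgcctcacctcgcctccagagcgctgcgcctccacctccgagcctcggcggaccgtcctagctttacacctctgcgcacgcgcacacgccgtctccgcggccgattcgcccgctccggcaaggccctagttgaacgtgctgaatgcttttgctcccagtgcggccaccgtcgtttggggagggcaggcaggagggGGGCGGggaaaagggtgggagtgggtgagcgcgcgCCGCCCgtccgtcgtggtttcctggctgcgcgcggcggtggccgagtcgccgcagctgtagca
Fam160a1: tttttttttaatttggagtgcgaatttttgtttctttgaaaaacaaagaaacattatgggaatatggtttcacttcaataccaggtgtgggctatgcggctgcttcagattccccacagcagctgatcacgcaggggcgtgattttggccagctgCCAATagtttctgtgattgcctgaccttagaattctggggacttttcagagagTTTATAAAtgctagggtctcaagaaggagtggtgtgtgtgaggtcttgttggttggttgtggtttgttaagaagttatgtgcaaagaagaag
Nwd2: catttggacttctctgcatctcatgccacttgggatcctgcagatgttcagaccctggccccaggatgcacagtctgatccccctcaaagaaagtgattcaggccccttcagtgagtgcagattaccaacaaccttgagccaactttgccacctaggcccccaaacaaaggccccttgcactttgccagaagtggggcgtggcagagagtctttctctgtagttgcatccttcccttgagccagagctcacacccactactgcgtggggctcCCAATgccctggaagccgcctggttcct
The Fam160a1 and Nwd2 stretches held 4 and 3 CpG dinucleotides, and the other 5 held 12 to 38, against a median of 7 over all 32851 promoters of the table. Their GC content was 42.0% and 55.7%, and 56.7% to 70.7% in the other 5, with a median of 52.7% over all. The GC content of Nwd2 thus lay close to that of Zkscan8 (56.7%). The GC box was found in 5 of 7, all but Fam160a1 and Nwd2, against 35.7% of all promoters. The CCAAT box was found in 2 of 7, Fam160a1 and Nwd2, against 37.4% of all, and the core of the cAMP response element in 3 of 7 against 20.8%. The TATA box was found in 2 of 7 against 13.6%, in Polr2a and, as overlapping copies on both strands, in Fam160a1. The E-box CACGTG was in none of the 7 windows and in 7.2% of all. These counts describe the letters in the window and name no bound factor.

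In Camk2a neurons all 7 genes were higher in KO animals, with log2 fold changes of 0.41 to 1.04 over summed animals and a median of 0.50, beside 0.00 over all 16743 genes. Of the 7, 6 were past an adjusted p of 0.05 and Nwd2 was not, against 2.05% of all genes called higher in KO. That share is background only, since the genes were picked on this contrast. For the same reason the counts below, by area and with animals left out, describe the fits and are no test of the genes. In the fits that left out 1 animal, 4 to 7 were past it, the lowest count being that without C7 (0.459% of all genes). Fam160a1, Atl3, Zfp518a and Polr2a were past it in all 13 of these fits, Zkscan8 in 12 (not without C7), and Smg6 and Nwd2 in 3 (without C5, C6 or C24). In V1, 6 of 7 were past it (all but Zkscan8), with 0.62% of all genes called higher. Without C3, C18 and C19 only Fam160a1 was past it in V1, with 0.0191% of all genes, and without C24 5 of 7 were, with 1.04%. In S1, 5 of 7 were past it (all but Fam160a1 and Nwd2), with 1.99%. Without C3, C18 and C19 this was 4 of 7 in S1, with 0.742%, and without C24 all 7, with 5.48%. In 5 genes every KO animal lay above every WT animal (Fam160a1, Atl3, Zfp518a, Zkscan8 and Polr2a), as in 1.21% of all genes tested. In single libraries this held for Atl3, Smg6 and Polr2a in V1, where 0.733% of genes did so, and for Atl3, Zkscan8 and Polr2a in S1, where 0.765% did. Without the PV-rich animals C3, C18 and C19 the log2 fold changes were 0.40 to 0.93, and 3 genes (Fam160a1, Atl3 and Polr2a) were past the threshold, with 0.257% of all genes. Without C24 they were 0.43 to 1.12, and all 7 were past it, with 3.87%. In bulk libraries, fewer cells of a type and less RNA per cell cannot be told apart.

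**Figure D1:**
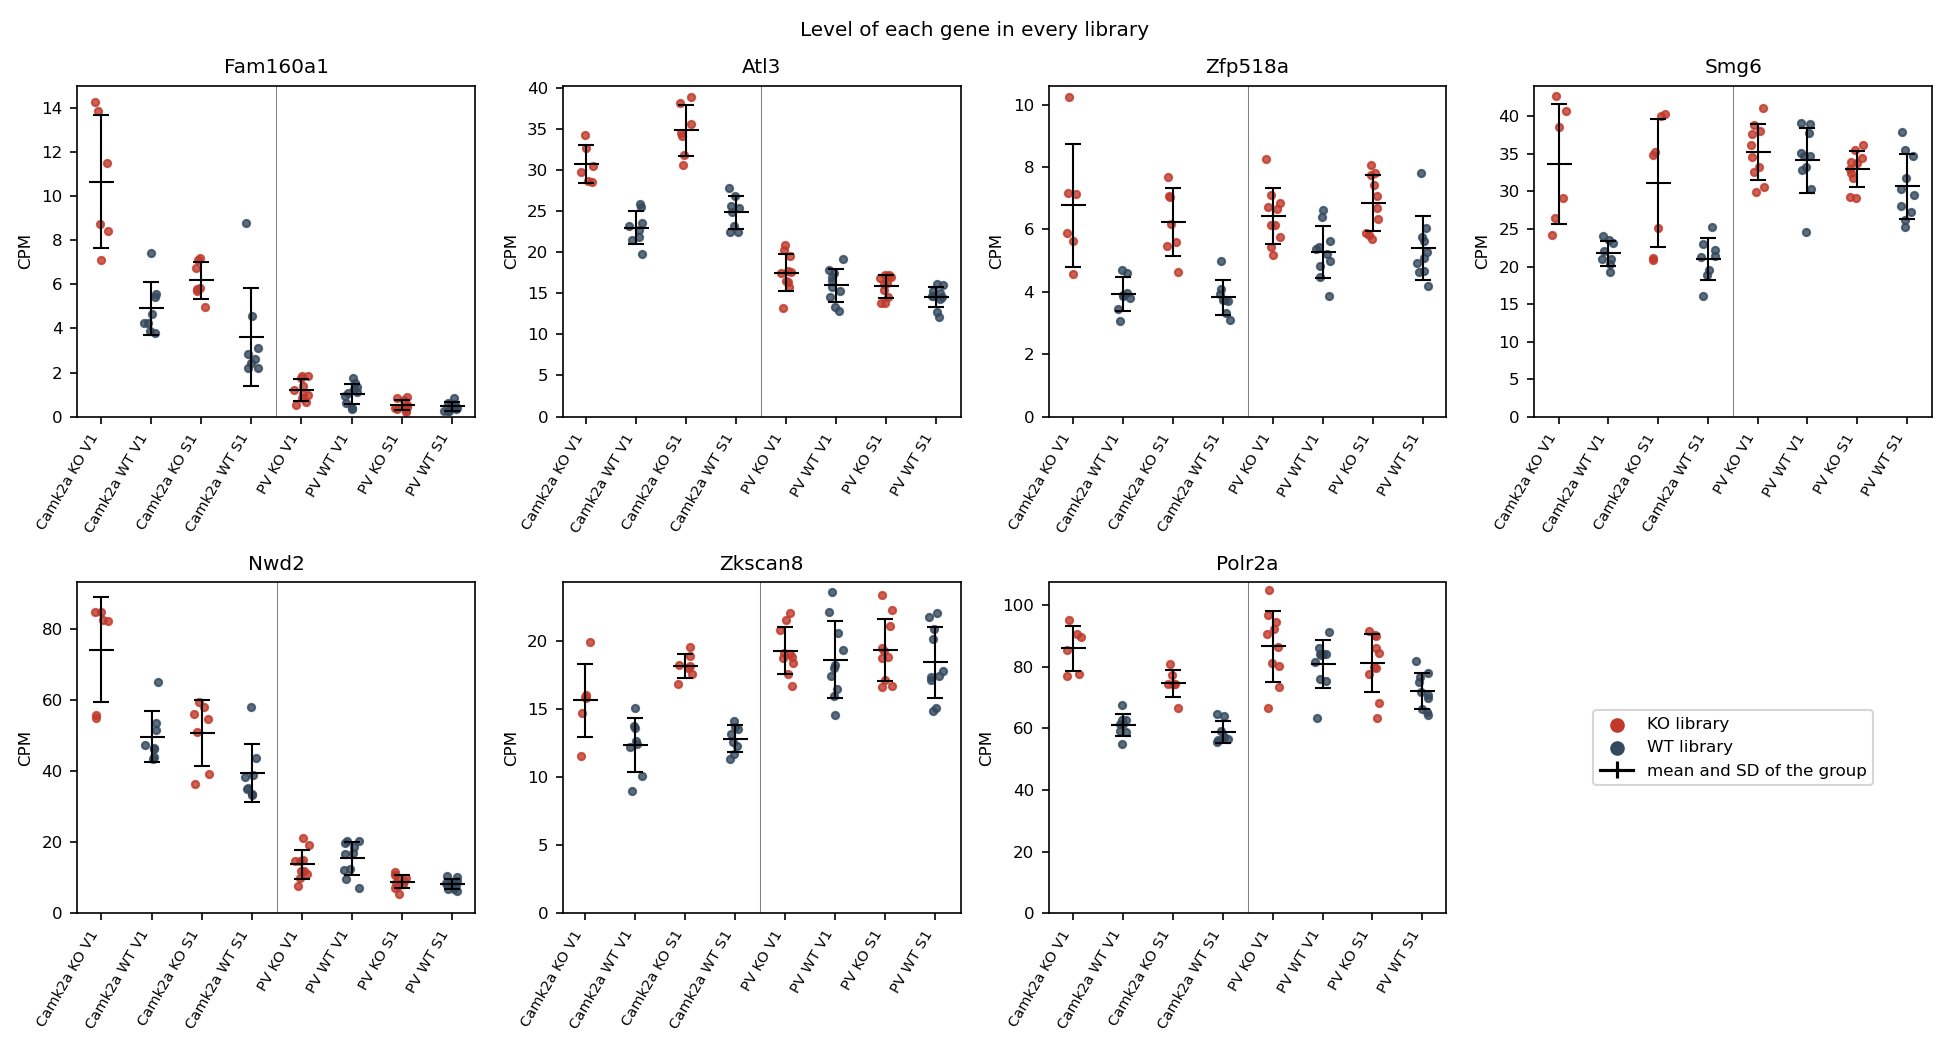
Level of each gene in CPM (y axis, linear from 0) in every library of the 8 groups (x axis), with KO libraries in red and WT libraries in dark blue; black bars give the group mean and SD. KO Camk2a points sit above all WT Camk2a points in both areas for Atl3 and Polr2a, while KO and WT PV points overlap for all 7 genes.

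PV interneurons did not show a called difference for any of the 7 genes. Over 9 KO and 10 WT animals 0 of 7 passed edgeR's adjusted test, with 2 at an unadjusted p under 0.05 (Atl3 and Zfp518a) and 1.36% of 17154 genes called in either direction (0.315% higher and 1.05% lower in KO). The same count was 0 of 7 in V1 (1 unadjusted, Zfp518a; 0.191% of all genes called) and 0 of 7 in S1 (2 unadjusted, Zfp518a and Polr2a; 0.77%). Without P9, P22 and P24 the counts were again 0 of 7 over animals (0.471% of all genes), 0 of 7 in V1 (0.232%) and 0 of 7 in S1 (0.51%). Log2 fold changes ran over -0.05 to 0.32 in summed animals with a median of 0.11, beside 0.01 over all genes, and 6 of 7 were positive. DESeq2 called 1 of 7, Zfp518a, with 2.73% of all genes. A limma-voom fit on single libraries with the animal as a correlated block also called Zfp518a alone, with 2.53% of all genes. None of the 7 was called for a different genotype effect between the areas in PV interneurons, where the edgeR interaction gave an adjusted p of 0.9998 for each, 0 of 16733 genes were called and none of the 7 reached an unadjusted p under 0.05. The difference of the genotype effect between the neuron classes was not tested, because the Camk2a side was used to pick the genes.

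**Figure D2:**
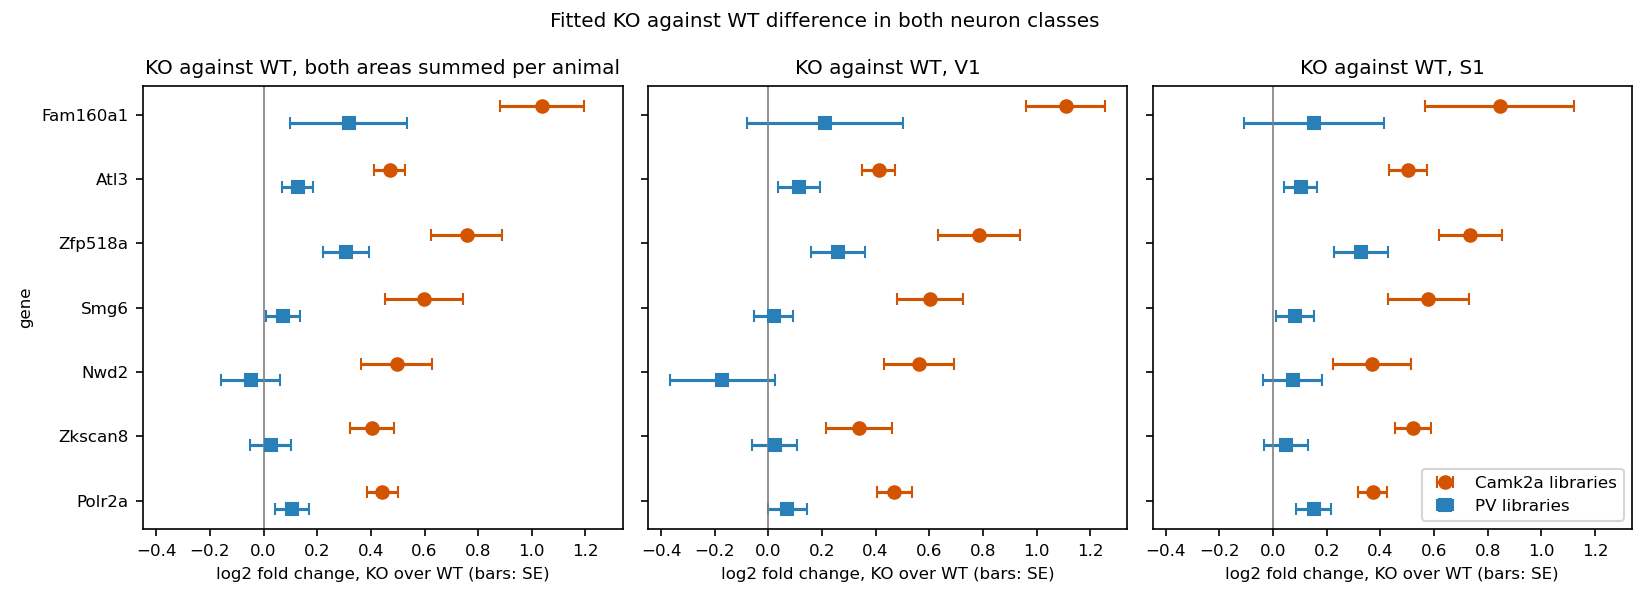
Fitted log2 fold change of KO over WT (x axis, bars are standard errors) for each gene (y axis) in Camk2a libraries (orange circles) and PV libraries (blue squares), over summed animals, in V1 and in S1. Summed Camk2a values run over 0.41 to 1.04 and summed PV values over -0.05 to 0.32, and the Camk2a values chose the genes.

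Polr2a, the polymerase subunit (ENSMUSG00000005198, chromosome 11, 69733997 to 69758637, minus strand, mm10), had the highest level per length of the 7 genes in both classes, at 9.75 CPM per kb of exon in Camk2a and 11.4 CPM per kb in PV libraries. In Camk2a V1 its lowest, median and highest libraries were at 77.1, 87.6 and 95.2 CPM in KO, against 54.9, 61.4 and 67.6 CPM in WT. In Camk2a S1 they were at 66.5, 74.4 and 80.9 CPM in KO, against 55.7, 57.2 and 64.8 CPM in WT. The lowest KO library thus lay above the highest WT library in both areas, and the log2 fold change over animals was 0.44 (SE 0.06), or 0.42 without C3, C18 and C19. In PV V1 the KO libraries ran over 66.5, 88.6 and 105 CPM (lowest, median, highest), against 63.3, 83.9 and 91.3 CPM in WT. In PV S1 they ran over 63.5, 82.2 and 91.7 CPM in KO, against 64.5, 71.4 and 81.9 CPM in WT. These ranges overlapped in both areas, with a log2 fold change of 0.11 (SE 0.06, edgeR adjusted p = 0.561, 8 of 9 KO animals above the WT mean), or 0.10 without P9, P22 and P24. The WT Camk2a means, 61.1 ± 3.70 CPM in V1 and 58.9 ± 3.59 CPM in S1 (SD, n = 8 each), were the lowest of the 8 groups. The step up to the next group, PV WT S1 at 72.1 ± 5.81 CPM (n = 10), was the only 1 between neighbours in the order of means that exceeded the sum of their SDs. The genes with the most similar pattern over 69 libraries were Prpf8 (Pearson r = 0.856), a core splicing factor, and the insulin receptor gene Insr (r = 0.851), a description over libraries that share groups.

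The other subunits of the polymerase were mostly lower in KO Camk2a animals, by amounts that passed the test for 1 of them. Of 12 other subunit genes tested, 3 had positive and 9 negative log2 fold changes in Camk2a animals (median -0.13), with 0 called higher and 1 called lower by edgeR, beside 2.05% of all genes called lower. At an unadjusted p under 0.05 there were 5, and DESeq2 called 0 higher and 1 lower. The gene called lower was Polr2h, a subunit shared by the 3 nuclear polymerases, at 11 ± 1.88 CPM in 6 KO and 14.2 ± 0.99 CPM in 7 WT animals (SD). It fell by 0.37 on the log2 scale (SE 0.09, edgeR adjusted p = 0.0306, lower in 6 of 6 KO animals). The call was lost without C3, C18 and C19 (-0.41, adjusted p = 0.0964) and without any 1 of C5, C7, C15, C16, C19, C20 and C23, while the log2 fold change stayed between -0.41 and -0.30 in all 22 fits. In PV animals 6 were positive and 6 negative (median 0.00), with 0 called by edgeR, 0 at an unadjusted p under 0.05 and 0 by DESeq2. Over all genes with coding sequences of 99 to 780 bases the median in Camk2a animals was -0.08, with 2.78% called lower. Whether the subunits go beyond genes of like coding length was not tested. Of 24 kinases, phosphatases and elongation factors acting on the polymerase tail, 18 were positive in Camk2a animals (median 0.06) and 15 in PV animals (median 0.01), with 0 called by edgeR in either class. Unadjusted p-values under 0.05 numbered 7 in Camk2a and 1 in PV animals, and DESeq2 called 1 higher in each class.

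Smg6 (ENSMUSG00000038290, chromosome 11, 74925823 to 75164448, plus strand), the decay endonuclease, was spread widely among KO Camk2a animals. In V1 its lowest, median and highest libraries were at 24.2, 33.8 and 42.7 CPM in KO, against 19.2, 21.5 and 24.0 CPM in WT. In S1 they were at 20.9, 34.9 and 40.3 CPM in KO, against 16.02, 21.4 and 25.2 CPM in WT. The KO libraries of C3, C7, C14 and, in S1, C12 were at 38.5 to 42.7 CPM in V1 and 34.9 to 40.3 CPM in S1, and those of C4, C5 and C6 at 24.2 to 29.1 CPM and 20.9 to 25.1 CPM. The S1 values of C4, C5 and C6 lay within the WT range, and the log2 fold change over animals was 0.60 (SE 0.15), or 0.45 without C3, C18 and C19. These KO libraries all carry the label of batch 1, while the highest WT S1 value, 25.2 CPM in C24, is the batch 2 library. Whether the spread among KO animals goes with anything else was not tested. In PV libraries the median was 35.4 CPM in KO and 34.7 CPM in WT in V1, and 33.4 CPM in KO and 30.0 CPM in WT in S1. The PV ranges overlapped, with a log2 fold change of 0.07 (SE 0.06, edgeR adjusted p = 0.743, 9 of 9 KO animals above the WT mean), or 0.11 without P9, P22 and P24. KO Camk2a means, 33.6 ± 7.98 CPM in V1 (n = 6) and 31.1 ± 8.51 CPM in S1 (n = 7), stood among the PV means of 30.7 to 35.3 CPM, and WT Camk2a means were lower at 21.8 ± 1.69 and 20.9 ± 2.80 CPM (SD, n = 8 each).

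Smg6 shares 126 exonic bases, 1.5% of its exonic length, with Srr on the opposite strand, and whether reads were counted by strand is not stated. Srr, the serine racemase gene, stood at 93.7 ± 1.52 CPM in KO and 83.5 ± 6.07 CPM in WT Camk2a animals (SD, n = 6 and 7, log2 fold change 0.17, edgeR adjusted p = 0.0887). Of 19 other decay and exon junction genes, 11 were positive and 8 negative in Camk2a animals (median 0.02). Of these, 0 were called higher and 1 lower by edgeR, beside 2.05% of all genes called lower. At an unadjusted p under 0.05 there were 4, and DESeq2 called 1 higher and 1 lower. The gene called by edgeR was Rbm8a, a core exon junction protein, at 43.1 ± 4.71 CPM in KO and 52.9 ± 4.58 CPM in WT animals. It fell by 0.29 on the log2 scale (SE 0.08, edgeR adjusted p = 0.0453, lower in 6 of 6), a call held in 10 of 22 fits. It was lost without C3, C18 and C19 together (-0.31, adjusted p = 0.143) and without any 1 animal other than C14 and C24, while the log2 fold change stayed between -0.36 and -0.26. In PV animals 12 of 19 were positive (median 0.01), with 0 called by edgeR, 2 at an unadjusted p under 0.05 and 0 by DESeq2. The patterns most like Smg6 were those of Emsy (r = 0.896), a chromatin protein gene, and 4932438A13Rik (r = 0.853).

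Zfp518a (ENSMUSG00000049164, chromosome 19, 40894705 to 40917947, plus strand) was the gene of the 7 closest to the threshold in PV interneurons. In Camk2a V1 its lowest, median and highest libraries were at 4.56, 6.52 and 10.2 CPM in KO, against 3.06, 3.88 and 4.71 CPM in WT. In Camk2a S1 they were at 4.63, 6.18 and 7.69 CPM in KO, against 3.11, 3.74 and 4.99 CPM in WT. The log2 fold change over animals was 0.76 (SE 0.13), or 0.67 without C3, C18 and C19, and the KO libraries of C7, C14 and C3 were the highest in both areas. In both areas the lowest KO library lay below the WT library of C24, the highest WT value. In PV V1 they were at 5.18, 6.39 and 8.26 CPM in KO, against 3.85, 5.28 and 6.62 CPM in WT. In PV S1 they were at 5.70, 6.89 and 8.08 CPM in KO, against 4.20, 5.17 and 7.82 CPM in WT. Every KO PV animal lay above the WT mean (9 of 9), yet the ranges overlapped. The log2 fold change was 0.31 (SE 0.09) with an edgeR adjusted p of 0.0757. It passed with DESeq2 (adjusted p = 0.0196), with limma-voom (0.0192) and without the WT animal P18 (0.0187), within a range of 0.0187 to 0.153 over all fits. Without P9, P22 and P24 it was 0.33 (adjusted p = 0.153). The P18 S1 library, at 7.82 CPM, stood above the next WT library at 6.05 CPM. The pattern most like it was that of Smg6 (r = 0.820), followed by Taf1 (r = 0.740), which encodes a subunit of the general transcription factor TFIID. Zfp518a and Smg6 also varied together within groups, with r = 0.701 for their deviations from the group means over 69 libraries, the highest of the 21 pairs among the 7 genes (median 0.272, lowest 0.017).

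Of 13 other genes of the list of ZNF518 proteins and histone H3 lysine 9 methyltransferases, 10 were positive in Camk2a animals (median 0.04). Of the 13, 1 was called higher and 0 lower by edgeR, beside 2.05% of all genes called higher. At an unadjusted p under 0.05 there were 3, and DESeq2 called 2 higher. The gene called by edgeR was Wiz, which encodes a zinc finger partner of the methyltransferase G9a. It stood at 55.6 ± 1.38 CPM in 6 KO and 48.9 ± 2.40 CPM in 7 WT animals (SD, log2 fold change 0.19, SE 0.04, edgeR adjusted p = 0.0239, higher in 6 of 6), and its call was lost without C3, C18 and C19 (0.19, adjusted p = 0.122) and without C7, C16 or C19 alone. Its log2 fold change was 0.17 to 0.20 over all fits. In PV animals 5 of 13 were positive (median 0.00), with 0 called by edgeR, 0 at an unadjusted p under 0.05 and 0 by DESeq2.

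Zkscan8 (ENSMUSG00000063894, chromosome 13, 21513222 to 21531120, minus strand) separated the genotypes in Camk2a S1 and less so in V1. In V1 its lowest, median and highest libraries were at 11.5, 15.8 and 19.9 CPM in KO, against 8.96, 12.5 and 15.1 CPM in WT. In S1 they were at 16.8, 18.1 and 19.5 CPM in KO, against 11.3, 12.9 and 14.1 CPM in WT. The V1 ranges overlapped, with C6 at 11.5 CPM below several WT libraries, and the S1 ranges did not. Log2 fold changes were 0.41 (SE 0.08) over animals, 0.34 (SE 0.12) in V1 and 0.52 (SE 0.07) in S1, or 0.40, 0.33 and 0.54 without C3, C18 and C19. In PV libraries the medians were 18.9 CPM in KO and 18.1 CPM in WT in V1, and 19.02 CPM in KO and 17.6 CPM in WT in S1. Both genotypes covered nearly the same range, with a log2 fold change of 0.03 (SE 0.08, edgeR adjusted p = 0.952, 6 of 9 KO animals above the WT mean), or 0.05 without P9, P22 and P24. All PV group means lay above all Camk2a group means, but neighbouring groups in that order stayed within the sum of their SDs. Itch (r = 0.882), a ubiquitin ligase gene, and Fam168a (r = 0.880) had the most similar pattern.

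Among 20 other SCAN and KRAB zinc finger genes, 17 were positive and 3 negative in Camk2a animals, with a median of 0.13 and 4 called higher and 0 lower, beside 2.05% of all genes called higher. The count was 0 without C3, C18 and C19, where the median of the list was 0.16 and 0.257% of all genes were called higher. It was 5 without C24, with 3.87% of all genes, and 0 to 7 when 1 animal was left out. It was 0 without C7 (0.459% of all genes), C15, C16 or C23. By smallest p the first was Zscan12, at 7.22 ± 0.63 CPM in 6 KO and 5.59 ± 0.65 CPM in 7 WT animals (SD, log2 fold change 0.38, SE 0.08, edgeR adjusted p = 0.0219, higher in 6 of 6). The next was Zkscan7, at 1.77 ± 0.23 CPM in KO and 1.17 ± 0.30 CPM in WT (log2 fold change 0.62, SE 0.14, edgeR adjusted p = 0.0302, higher in 6 of 6). Both calls were lost without C7, C15, C16 or C23, and that of Zkscan7 also without C3, C4, C5 or C19. Without C3, C18 and C19 the log2 fold changes were 0.40 for Zscan12 and 0.65 for Zkscan7. A pseudogene carries the same symbol in the table, so the count of Zkscan7 is uncertain. Zscan25 and Zscan26 were the other 2. Zscan12 (21362820 to 21372289), Zscan26 (21442180 to 21453730) and Zkscan8 lie close together on chromosome 13, where 11 genes of the table, Zkscan8 included, lay within 500 kb of it. Of the 10 others, 9 were positive in Camk2a animals and 2 were called, Zscan12 and Zscan26. The call of Zscan26 was lost without C3, C18 and C19 (0.33, adjusted p = 0.159) and without any 1 animal other than C14 and C24. Zkscan3, between Zscan12 and Zscan26, stood at 0.07 (adjusted p = 0.631). In PV animals 15 of the 20 were positive (median 0.07), with 0 called by edgeR, 6 at an unadjusted p under 0.05 and 0 by DESeq2.

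Atl3 (ENSMUSG00000024759, chromosome 19, 7494040 to 7539674, plus strand), the reticulum GTPase, showed the least overlap between groups. In Camk2a V1 its lowest, median and highest libraries were at 28.5, 30.2 and 34.2 CPM in KO, against 19.8, 22.9 and 25.8 CPM in WT. In Camk2a S1 they were at 30.5, 34.5 and 38.9 CPM in KO, against 22.4, 25.1 and 27.8 CPM in WT. No KO library reached down to the WT range in either area, and the log2 fold change over animals was 0.47 (SE 0.06), or 0.51 without C3, C18 and C19. In PV V1 they were at 13.2, 17.5 and 20.8 CPM in KO, against 12.8, 16.1 and 19.1 CPM in WT. In PV S1 they were at 13.8, 16.2 and 17.3 CPM in KO, against 12.2, 14.6 and 16.1 CPM in WT. The PV ranges overlapped, with a log2 fold change of 0.13 (SE 0.06, edgeR adjusted p = 0.376, 7 of 9 KO animals above the WT mean), or 0.09 without P9, P22 and P24 (adjusted p = 0.840). The order of group means was KO Camk2a, then WT Camk2a, then PV. The steps between KO and WT Camk2a and between WT Camk2a and PV exceeded the sum of the SDs, while the 4 PV groups, at 14.5 to 17.5 CPM, stayed within it. Tecpr2 (r = 0.950), an autophagy gene, and Ankrd28 (r = 0.945), a phosphatase subunit gene, were most like it. For deviations from the group means r was 0.564 and 0.686. Of 22 other atlastin and reticulum-shaping genes, 16 were positive in Camk2a animals (median 0.03) and 14 in PV animals (median 0.03), with 0 called by edgeR in either class. Unadjusted p-values under 0.05 numbered 7 in Camk2a and 2 in PV animals, and DESeq2 called 1 higher in Camk2a and 0 in PV animals.

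Fam160a1 (ENSMUSG00000051000, chromosome 3, 85660061 to 85817291, minus strand) had the largest KO against WT difference of the 7 genes in Camk2a neurons. In V1 its lowest, median and highest libraries were at 7.11, 10.1 and 14.3 CPM in KO, against 3.79, 4.45 and 7.43 CPM in WT, the lowest KO library (C3) lying below the highest WT library (C20). In S1 they were at 4.96, 5.82 and 7.18 CPM in KO, against 2.20, 2.74 and 8.79 CPM in WT. The WT maximum of 8.79 CPM is the S1 library of C24, above every KO S1 library, and the next WT library is at 4.57 CPM, below every KO S1 library. Log2 fold changes were 1.04 (SE 0.16) over animals, 1.11 (SE 0.15) in V1 and 0.85 (SE 0.28) in S1, the last becoming 1.13 without C24. Without C3, C18 and C19 they were 0.93 over animals, 1.12 in V1 and 0.65 in S1. PV libraries held little of it, with medians of 1.12 CPM in KO and 1.09 CPM in WT in V1 and of 0.458 CPM in KO and 0.468 CPM in WT in S1. Down to 7 estimated counts per library stand behind these values, so the PV difference is imprecise (log2 fold change 0.32, SE 0.22, edgeR adjusted p = 0.640, 7 of 9 KO animals above the WT mean). It was 0.27 without P9, P22 and P24.

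The PV mean was 0.085 to 0.21 times the Camk2a mean of the same genotype and area, with no overlap between the classes. Slc17a7, which PV cells should lack, stood at 120 to 351 CPM in PV libraries, and the part of the Fam160a1 reads in PV libraries that comes from other cells was not tested. Patterns most like it were those of Slc4a10 (r = 0.955), a bicarbonate transporter gene, and Acvr2a (r = 0.949), an activin receptor gene. For deviations from the group means r was 0.566 and 0.498. Of 7 other FHIP and Hook complex genes tested, 4 were positive in Camk2a animals. Of the 7, 1 was called higher and 0 lower by edgeR, beside 2.05% of all genes called higher. At an unadjusted p under 0.05 there were 2, and DESeq2 called 1 higher and 1 lower. The gene called by edgeR was Fam160b2, a family member. It stood at 63.8 ± 6.11 CPM in 6 KO and 54.8 ± 3.62 CPM in 7 WT animals (SD, log2 fold change 0.22, SE 0.05, edgeR adjusted p = 0.0317, higher in 6 of 6), and its call was lost without C3, C18 and C19 (0.22, adjusted p = 0.137) and without any 1 of C3, C5, C6, C7, C16, C19, C20 and C23. Its log2 fold change was 0.20 to 0.26 over all fits. In PV animals 4 of 7 were positive, with 0 called by edgeR, 2 at an unadjusted p under 0.05 and 0 by DESeq2.

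Nwd2 (ENSMUSG00000090061, chromosome 5, 63649102 to 63810546, plus strand) was high in Camk2a neurons and split its KO animals. In V1 its KO libraries were at 54.8 and 55.6 CPM in C5 and C6 and at 82.2 to 84.8 CPM in C3, C4, C7 and C14, against a lowest, median and highest WT library of 43.4, 46.9 and 65.0 CPM. In S1 the KO libraries were at 36.4 and 39.2 CPM in C5 and C6 and at 51.0 to 59.4 CPM in the other 5, against 33.2, 36.7 and 57.9 CPM in WT. C5 and C6 lay within the WT range in both areas, as did 3 others in S1, where the highest WT value is the C24 library. Log2 fold changes were 0.50 (SE 0.13) over animals, 0.56 (SE 0.13) in V1 and 0.37 (SE 0.15) in S1, or 0.47, 0.56 and 0.31 without C3, C18 and C19. In PV libraries the medians were 13.2 CPM in KO and 16.7 CPM in WT in V1, and 8.64 CPM in KO and 8.21 CPM in WT in S1. It was the only 1 of the 7 with a negative value in PV animals, at -0.05 (SE 0.11, edgeR adjusted p = 0.936, 2 of 9 KO animals above the WT mean), or -0.04 without P9, P22 and P24. PV means were 0.174 to 0.31 times the Camk2a means of the same genotype and area. Gm9954, on the opposite strand, shares 1219 exonic bases with it, 11.7% of its exonic length, and stood at 15.9 ± 1.74 CPM in KO and 15.1 ± 1.54 CPM in WT Camk2a animals (log2 fold change 0.10, edgeR adjusted p = 0.540). Scn3a (r = 0.981), a sodium channel gene, and Atp8a1 (r = 0.977), a phospholipid flippase gene, had the most similar pattern. For deviations from the group means r was 0.808 and 0.735.

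Among NACHT and WD repeat proteins, the list of Nwd2, 1 gene passed the test, in PV animals. Of 8 others tested in Camk2a animals, 5 were positive (median 0.15, or 0.00 over 10 genes with no filter on low counts), with 0 called by edgeR, 3 at an unadjusted p under 0.05 and 1 called higher by DESeq2. Of 10 in PV animals, 5 were positive with 1 called higher and 0 lower by edgeR, beside 0.315% of all genes called higher. This was Nlrx1, a mitochondrial member of the NOD-like receptor family, at 3.52 ± 0.54 CPM in 9 KO and 2.52 ± 0.41 CPM in 10 WT PV animals (SD, log2 fold change 0.47, SE 0.11, edgeR adjusted p = 0.0266, higher in 9 of 9). Its call was lost without P9, P22 and P24 (0.46, adjusted p = 0.108) and without any 1 of P9, P10, P24 and P25, while the log2 fold change was 0.41 to 0.52 over all fits.

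Between areas, Fam160a1 and Nwd2 were higher in V1 than in S1, and the other 5 genes did not pass the test in libraries taken as independent. In Camk2a KO libraries 2 of 7 were called, with 13.1% of all genes called in either direction. Fam160a1 averaged 10.7 ± 3.01 CPM in V1 (SD, n = 6) and 6.18 ± 0.84 CPM in S1 (n = 7), a log2 fold change of 0.72 (SE 0.15, edgeR adjusted p = 0.00362). Nwd2 averaged 74.1 ± 14.7 CPM in V1 and 50.6 ± 9.20 CPM in S1, a log2 fold change of 0.56 (SE 0.15, edgeR adjusted p = 0.0202). Both were higher in V1 in 6 of 6 KO animals. With the animal as a block 4 of 7 were called and 20.9% of all genes, Polr2a also higher in V1 (0.16, adjusted p = 0.0307) and Atl3 lower (-0.22, adjusted p = 0.0279).

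In Camk2a WT libraries 0 of 7 were called, with 0.359% of all genes and 1 of 7 (Nwd2) at an unadjusted p under 0.05. DESeq2 called 1 of 7, Nwd2 (0.35, adjusted p = 0.0327), with 8.78% of all genes. Without the animal C24 the same 2 genes as in KO were called, with 21.8% of all genes. Fam160a1 stood at 0.84 (edgeR adjusted p = 0.00301) and Nwd2 at 0.46 (edgeR adjusted p = 0.00138), against 0.48 (adjusted p = 0.298) and 0.34 (adjusted p = 0.0900) with it. Fam160a1 was at 3.79 CPM in the V1 library and 8.79 CPM in the S1 library of C24. Both C24 libraries scored nearer to the area they were not labelled with, and the S1 library is that of batch 2. That score rests on area differences in these same libraries. Area fits without C24, and those below without P22 or without P9 and P24, are thus no independent test. V1 was higher in the other 6 of 7 WT animals for Fam160a1 and Nwd2. With the animal as a block 0 of 7 were called with C24 (0.0448% of all genes) and 3 of 7 without it (33.7%), Atl3 being lower in V1 (-0.15, adjusted p = 0.0246).

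In PV WT libraries 2 of 7 were called, with 20.6% of all genes, and again 2 of 7 without P22, with 31.6%. Fam160a1 averaged 1.03 ± 0.47 CPM in V1 and 0.462 ± 0.185 CPM in S1 (SD, n = 10 each, log2 fold change 1.10, SE 0.28, edgeR adjusted p = 0.0121). Nwd2 averaged 15.4 ± 4.76 CPM in V1 and 8.20 ± 1.42 CPM in S1 (log2 fold change 0.84, SE 0.14, edgeR adjusted p = 0.00585). V1 was higher in 9 of 10 animals for both, all but P22. With the animal as a block 3 of 7 were called (26.6% of all genes), Polr2a also being higher in V1 (0.14, adjusted p = 0.0314), and 4 of 7 without P22 (42.0%), which added Smg6 (0.14, adjusted p = 0.0486). In PV KO libraries 2 of 7 were called, with 7.56% of all genes, and again 2 of 7 without P9 and P24, with 21.6%. Fam160a1 averaged 1.21 ± 0.49 CPM in V1 and 0.523 ± 0.228 CPM in S1 (SD, n = 10 each, log2 fold change 1.16, SE 0.24, edgeR adjusted p = 0.0277). Nwd2 averaged 13.7 ± 4.12 CPM in V1 and 8.80 ± 1.86 CPM in S1 (log2 fold change 0.60, SE 0.16, edgeR adjusted p = 0.0330). V1 was higher in 8 of 9 animals for Fam160a1, all but P24, and in 7 of 9 for Nwd2, all but P9 and P24. With the animal as a block 0 of 7 were called (0.0% of all genes; 2 of 7 at an unadjusted p under 0.05 in edgeR, Fam160a1 and Nwd2, with adjusted p of 0.0706 and 0.0819), and 2 of 7 without P9 and P24 (28.6%). Excitatory markers summed to a median of 1454 CPM in V1 and 1386 CPM in S1 in KO PV libraries and to 1592 CPM in V1 and 1242 CPM in S1 in WT PV libraries. Their part in the area differences of Fam160a1 and Nwd2 in PV libraries was not tested.

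**Figure D3:**
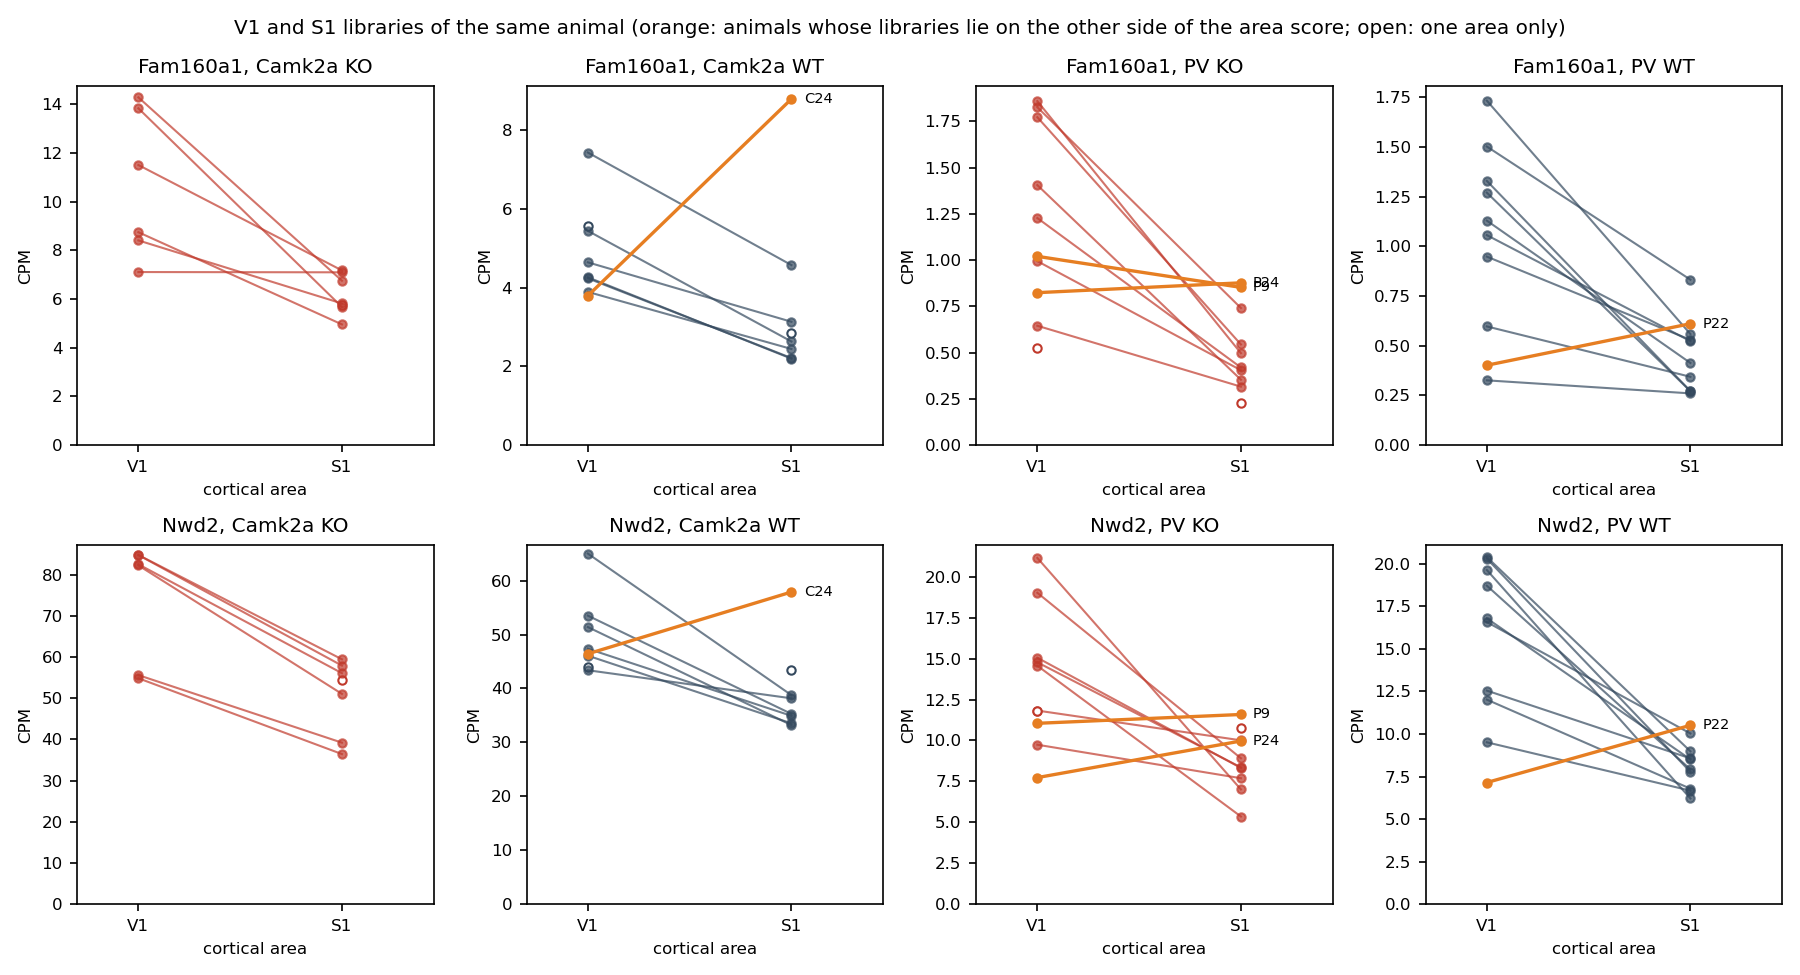
CPM (y axis, from 0) of Fam160a1 (top) and Nwd2 (bottom) in the V1 and S1 libraries of each animal, joined by a line, in Camk2a KO, Camk2a WT, PV KO and PV WT mice; open points are animals with 1 library. Nearly all lines fall toward S1, and the exceptions are the animals in orange (C24, P22, P24 and, for Nwd2, P9), for which 1 or both libraries scored nearer to the other area without these genes. The score used other genes picked for their area difference in these same libraries.

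Levels by class, given as a description, put the genes in 3 kinds. Fam160a1, Nwd2 and Atl3 were higher in Camk2a than in PV libraries in every genotype and area with no overlap, as were 14.2% of the 16448 genes tested in both classes, the PV mean being 0.455 to 0.694 times the Camk2a mean for Atl3. Smg6, Zkscan8 and Polr2a were higher in PV than in Camk2a libraries in WT, with PV means of 1.23 to 1.57 times the Camk2a means. In KO libraries the same genes had ratios of 1.01 to 1.23. Zfp518a had ratios of 1.35 in V1 and 1.41 in S1 in WT and of 0.949 in V1 and 1.10 in S1 in KO. No test is given for these ratios, since KO Camk2a levels entered the choice.

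Most of the 7 genes, but not all, had long coding sequences. Of the 14117 tested genes with an annotated coding sequence (GENCODE M21), 5 of the 7 fell into the longest of 5 classes of about equal number, of 2589 bases or more, with Polr2a at 5910, Nwd2 at 5226, Zfp518a at 4434, Smg6 at 4254 and Fam160a1 at 3243 bases. Zkscan8 at 1764 and Atl3 at 1623 bases lay above the median of 1428 bases. Over all genes the log2 fold change in Camk2a animals had a median of -0.08 in the shortest class, -0.01, 0.03 and 0.04 in the next ones and 0.07 in the longest. The share called higher in KO was 0.67% in the shortest class and 4.04% in the longest. Genes picked on this contrast are thus more often long, so the 5 of 7 is a description and no test of length. In PV animals the medians were 0.01 in the shortest and -0.01 in the longest class, with 0.32% and 0.11% called higher. The values of all 7 genes in Camk2a animals stood above the upper quartile of their own class, 0.12 to 0.17, which the choice of the genes fixes. The tetramers AGGA and TGGA, short motifs cited for binding of FMRP in human cells, occurred 9.70 to 22.3 times per kb of coding sequence in the 7 genes, against a median of 16.2. Smg6 stood at the 88.1th percentile and Zfp518a at the 7.8th, so the 7 genes shared no common density of these letters.

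**Figure D4:**
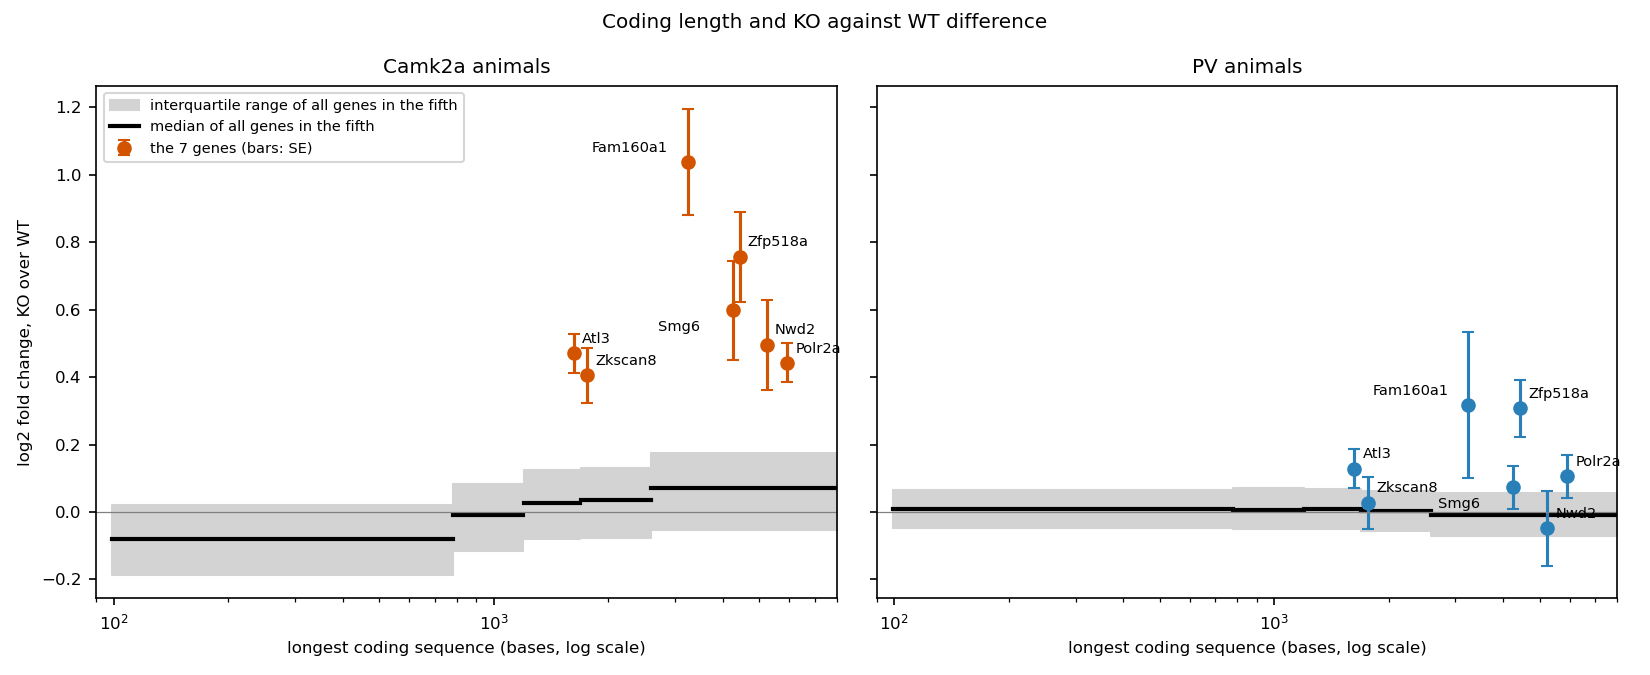
Log2 fold change of KO over WT in summed animals (y axis) against the length of the longest coding sequence (x axis, log scale) for the 7 genes (points, bars are standard errors), over the median (black) and interquartile range (grey) of all genes in each of 5 classes of coding length, in Camk2a (left) and PV animals (right). Medians run over -0.08 to 0.07 with length in Camk2a animals and stay within 0.01 of 0 in PV animals; 5 of the 7 genes are in the longest class.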

How the data were processed

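For 69 libraries the authors deposited estimated counts for each gene in a single table that was not normalized, 71.1% of whose entries are not integers. STAR, Salmon and limma, and the build mm10, appear in the submitters' processing notes without roles, versions or order, which are not given in the sources used here. Per the labels' protocols the kit amplifies cDNA without molecular identifiers, and separation of strands is not stated. Of 17634 gene identifiers, 17614 were named from GENCODE M21.

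The members, gene lists and alternatives were chosen with earlier results of these data known. Estimated counts were rounded to whole numbers, filtered with filterByExpr and fitted with edgeR 4.0.16 (R 4.3.3), using TMM factors, a robust quasi-likelihood fit, a term for labelled sex, and p-values adjusted by Benjamini-Hochberg over all genes tested. Calls are genes whose adjusted p was below 0.05. Both libraries of an animal were summed for comparisons of animals. A block in comparisons of areas is the animal, which the library names give. Deviations from the group means correlated between the V1 and S1 libraries of an animal at -0.231 to 0.854, above 0.1 in 27 of 32 animals. In comparisons of genotypes the p-values measure the spread between animals. In the main comparisons of areas and in the interaction, both libraries of an animal were taken as independent. Their p-values measure the spread between libraries. Those of the blocked fits measure the spread of the area difference between animals. Alternatives were DESeq2 1.42.0, RLE factors, no filter, no sex term, limma-voom (3.58.1), blocks and animals left out, and sex by Y-linked RNA. The last was chosen after seeing the data, as were the fits without C24 in V1 and in the area comparison and the blocked fits without C24, P22, or P9 and P24. CPM were computed from the rounded counts and the library total. Similar patterns are Pearson correlations of log2(CPM + 1) among genes with a mean of at least 5 CPM. They include the differences between groups. For deviations from the group means the same pairs had r of 0.498 to 0.812. Named genes were the 7 members, Fmr1, up to 2 called genes per list and direction with the smallest p in KO against WT over animals, and the 2 genes with the most similar pattern per member. The edgeR scripts were tested on simulated data. Within groups every pair of libraries differed by more than counting noise (smallest chi-square per degree of freedom 4.49 over 272 pairs).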

Additional observations from a re-analysis of the deposited data

Results flagged for a closer look

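Of 56 sets of values, 1 per gene and group, 4 had a library far from the rest by Dixon's criterion, which chance alone meets in about 1 of 20 groups. Fam160a1 in the S1 library of the Camk2a WT animal C24 was at 8.79 CPM, with the next WT library at 4.57 CPM. Nwd2 in the same library was at 57.9 CPM, with the next at 43.5 CPM. This C24 library scored nearer to V1 than to S1 and is that of batch 2. Nwd2 in the V1 library of the Camk2a WT animal C20 was at 65.0 CPM, with the next at 53.5 CPM. Zfp518a in the S1 library of the PV WT animal P18 was at 7.82 CPM, with the next at 6.05 CPM.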

How the results depend on the processing

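Beside the values in the report, the count of the 7 genes called in PV animals, 0, was 0 to 1 when 1 animal was left out, 1 with DESeq2 and 1 with limma-voom. In V1 and S1 of PV libraries it was 0 under every alternative run. Between areas, the count in Camk2a WT was 0, 1 with DESeq2, 2 without C24, 2 without the S1 library of C24 and 3 with the replicate block without C24. With the replicate block it was 4 in Camk2a KO and 0 in PV KO, against 2 in each without it, and 4 in PV WT without P22. The block changed no call beside those given in the report. Of 483 fitted values with a test, 462 kept direction and side of the threshold, 16 newly passed, 2 no longer passed and 3 changed sign, none of them called. Over fits that left out 1 PV animal, Nwd2 ran over -0.108 to 0.008 and Zkscan8 over -0.02 to 0.064. Each changed sign without P11, an animal whose Y-linked RNA went against its labelled sex. Fam160a1 in PV S1 was at -0.083 without P9, P22 and P24. The cause of these changes was not tested. All 245 alternative values of the described Camk2a contrast moved by less than 1 SD between animals or libraries. Counts over all genes depended more on single libraries, as the percentages called with and without C24, P22, P9 and P24 show. Depth limits Fam160a1 in PV libraries, where the median was 26 estimated counts. Intervals of counting error are not given, since reads were amplified without molecular identifiers.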
